A study of Homo sapiens with 15 samples.

Results

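The genes described here are 10 regulators of the NRF2 pathway, measured by RNA sequencing in BEAS-2B cells after exposure to fine particulate matter (PM2.5). They were chosen by name from the table of 58219 genes, and all 10 passed the filter on low counts that left 17599 genes to test. They comprise the transcription factors NFE2L2 (NRF2), NFE2L1 (NRF1) and NFE2L3 (NRF3), the repressor BACH1, the small MAF proteins MAFF, MAFG and MAFK, the sensor KEAP1, the autophagy receptor SQSTM1 (p62) and OSGIN1, an oxidative stress-induced growth inhibitor. BEAS-2B is an immortalized line of human bronchial epithelial cells, so each condition is a culture of the same line. There were 15 libraries in 5 conditions, each with 3 independent experiments. In the 24-h protocol cells received vehicle (medium alone) or a single exposure to PM2.5 at 1 or 30 µg/cm2, and in the repeated protocol of 7 d they received vehicle or PM2.5 at 1 µg/cm2 every day. For the repeated protocol the labels give 7 exposures and the methods fewer. The PM2.5 was extracted from filters of air monitoring stations in Beijing.

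NRF2 is made continuously and is held at a low level because KEAP1 presents it to a ubiquitin ligase built on CUL3. Electrophiles and oxidants modify KEAP1, and p62 can bind KEAP1 and carry it to autophagy, so that NRF2 accumulates, pairs with a small MAF protein and binds antioxidant response elements (AREs) in genes of glutathione synthesis, quinone reduction, haem breakdown and iron storage. BACH1 pairs with the same small MAF proteins at these elements and represses them. Much of this regulation acts on the proteins, which were not measured here, and the values below are of transcripts. On GRCh38 the gene models of the count table place NFE2L2 at chr2:177227595-177392697 (minus strand), NFE2L1 at chr17:48048329-48061487 (plus strand), NFE2L3 at chr7:26152240-26187125 (plus strand), BACH1 at chr21:29194071-29630751 (plus strand), MAFF at chr22:38200767-38216511 (plus strand). They place MAFG at chr17:81918270-81927714 (minus strand), MAFK at chr7:1530714-1543043 (plus strand), KEAP1 at chr19:10486120-10503741 (minus strand), SQSTM1 at chr5:179806398-179838078 (plus strand) and OSGIN1 at chr16:83948282-83966332 (plus strand).

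The stretches in front of the transcription start sites are shown for the 3 regulators that rose most at 30 µg/cm2 of PM2.5, for MAFG, which also rose, and for BACH1, whose protein competes with NRF2. RefSeq start sites on GRCh38.p14 were given for 9 of the 10 genes, in 17 windows that run from 250 bases before to 50 bases after a start site. MAFK was not among them. An ARE core was searched as TGACNNNGC, an AP-1 type element as TGANTCA, a MAF half-site as TGCTGA and the core bound by the aryl hydrocarbon receptor as GCGTG, each on both strands. Capitals mark ARE cores and AP-1 type elements. Each stretch reads from 5′ to 3′ on the strand of its gene and starts 150 bases before the start site. That of MAFF stops earlier, where an exon of another MAFF transcript begins.
OSGIN1, chr16:83953090-83953239, plus strand: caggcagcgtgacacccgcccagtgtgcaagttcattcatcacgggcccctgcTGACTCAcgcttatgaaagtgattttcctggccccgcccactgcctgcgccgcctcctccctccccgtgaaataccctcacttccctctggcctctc
MAFF, chr22:38201844-38201931, plus strand: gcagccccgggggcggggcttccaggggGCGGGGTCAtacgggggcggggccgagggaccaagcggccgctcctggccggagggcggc
BACH1, chr21:29298772-29298921, plus strand: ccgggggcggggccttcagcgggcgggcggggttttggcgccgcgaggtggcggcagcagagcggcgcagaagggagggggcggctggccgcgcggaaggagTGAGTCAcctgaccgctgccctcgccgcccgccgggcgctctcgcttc
SQSTM1, chr5:179820755-179820904, plus strand: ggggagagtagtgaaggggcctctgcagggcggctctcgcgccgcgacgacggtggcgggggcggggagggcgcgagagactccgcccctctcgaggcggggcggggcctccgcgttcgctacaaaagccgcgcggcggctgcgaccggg
MAFG, chr17:81927736-81927885, minus strand: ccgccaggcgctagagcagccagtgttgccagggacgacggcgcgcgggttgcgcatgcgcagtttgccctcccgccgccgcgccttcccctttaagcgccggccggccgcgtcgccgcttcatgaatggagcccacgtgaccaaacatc

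OSGIN1 held TGACTCA, an AP-1 type element, 97 bases before its start site, and the MAF half-site TGCTGA began at position -100 and overlapped it. MAFF held 1 ARE core on the other strand, 122 bases before its start site. BACH1 held TGAGTCA at position -48. In the window of KEAP1 an ARE core began at position -54, TGACACGGC, and another on the other strand at position -31, GCTTAGTCA. SQSTM1 held a MAF half-site on the other strand at position -197, outside the stretch shown, and MAFG held no match to any of the 4 motifs in its window. NFE2L2 held the GCGTG core at position -135 of one start site and at position -10 of another. This core was not particular to NFE2L2. It was also found, on either strand, in windows of NFE2L1, NFE2L3, BACH1, MAFF, KEAP1 and OSGIN1. Windows of NFE2L1, NFE2L3 and BACH1 held a MAF half-site as well. Of 35116 promoter windows of this length, 13.3% held the ARE core, 7.71% the AP-1 type element, 17.3% the MAF half-site and 36.5% the GCGTG core. These matches describe letters in a window, and binding was not measured.

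Total counts per library ran from 21460981 to 34724765, and 3 counts corresponded to 0.0864 to 0.140 CPM, the TMM-normalized count scaled to library size. The libraries of experiment 2 of the 24-h protocol, under all 3 treatments, stood apart from those of the other experiments of that protocol. Values, or only numbers of calls, without them are given where they change a call of a regulator. Of 10 epithelial markers, all were above 1 CPM in some library. The endothelial markers VWF, CDH5, PECAM1 and CLDN5 and the immune markers PTPRC, MS4A1, CD3E and CD68 stayed under 1 CPM in every library. The fibroblast markers PDGFRA and LUM did so too, but the other fibroblast markers were expressed. In the 24-h controls THY1, COL1A1 and PDGFRB averaged 80.5, 42.0 and 30.3 CPM. COL1A2, COL3A1 and DCN averaged 17.3, 6.2 and 5.4 CPM there. The epithelial markers summed to 3988 to 4425 CPM in the 24-h controls and 1772 to 2890 CPM after 30 µg/cm2, with 5 of 10 called lower and none higher. The 8 fibroblast markers summed to 162 to 223 CPM and 94.3 to 174 CPM in the same groups, and 2 of 8 were called lower. The 6 immune markers summed to 10.9 to 12.9 CPM and 2.56 to 17.9 CPM, with CD14 the 1 that was tested and not called. After daily exposure the epithelial sum was 2538 to 2745 CPM against 3544 to 4299 CPM in its controls, with 2 of 10 called lower. The part of these shifts in the values below was not tested. In bulk RNA, fewer cells that express a gene and less of its RNA per cell cannot be told apart.

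Levels between genes were compared per kilobase of exon (RPKM). In the 24-h vehicle controls NFE2L1 was the most abundant of the 10 transcripts, at 58.1 ± 2.18 RPKM (SD, n = 3). NFE2L2 followed at 27.8 ± 2.19 RPKM and KEAP1 at 24.1 ± 1.79 RPKM, and the libraries of these overlapped. MAFG at 12.0 ± 2.38 RPKM and SQSTM1 at 9.13 ± 0.289 RPKM also overlapped. BACH1, MAFK, NFE2L3 and MAFF lay between 5.40 and 2.77 RPKM, each overlapping the next. OSGIN1 was lowest, at 0.404 ± 0.150 RPKM.

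The order of these levels was not the same after 30 µg/cm2 of PM2.5. SQSTM1 stood second at 32.2 ± 4.42 RPKM, with KEAP1 at 27.6 ± 3.29 RPKM, NFE2L2 at 27.5 ± 1.30 RPKM and MAFG at 25.7 ± 5.27 RPKM, each overlapping the next. OSGIN1 reached 4.27 ± 1.00 RPKM, which overlapped MAFK and lay above every library of NFE2L3. NFE2L1 remained the most abundant, at 69.1 ± 10.2 RPKM, as it was in all 5 conditions. In the daily controls NFE2L1 stood at 85.9 ± 1.58 RPKM and NFE2L2 between 20.9 and 21.2 RPKM.

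**Figure D1:**
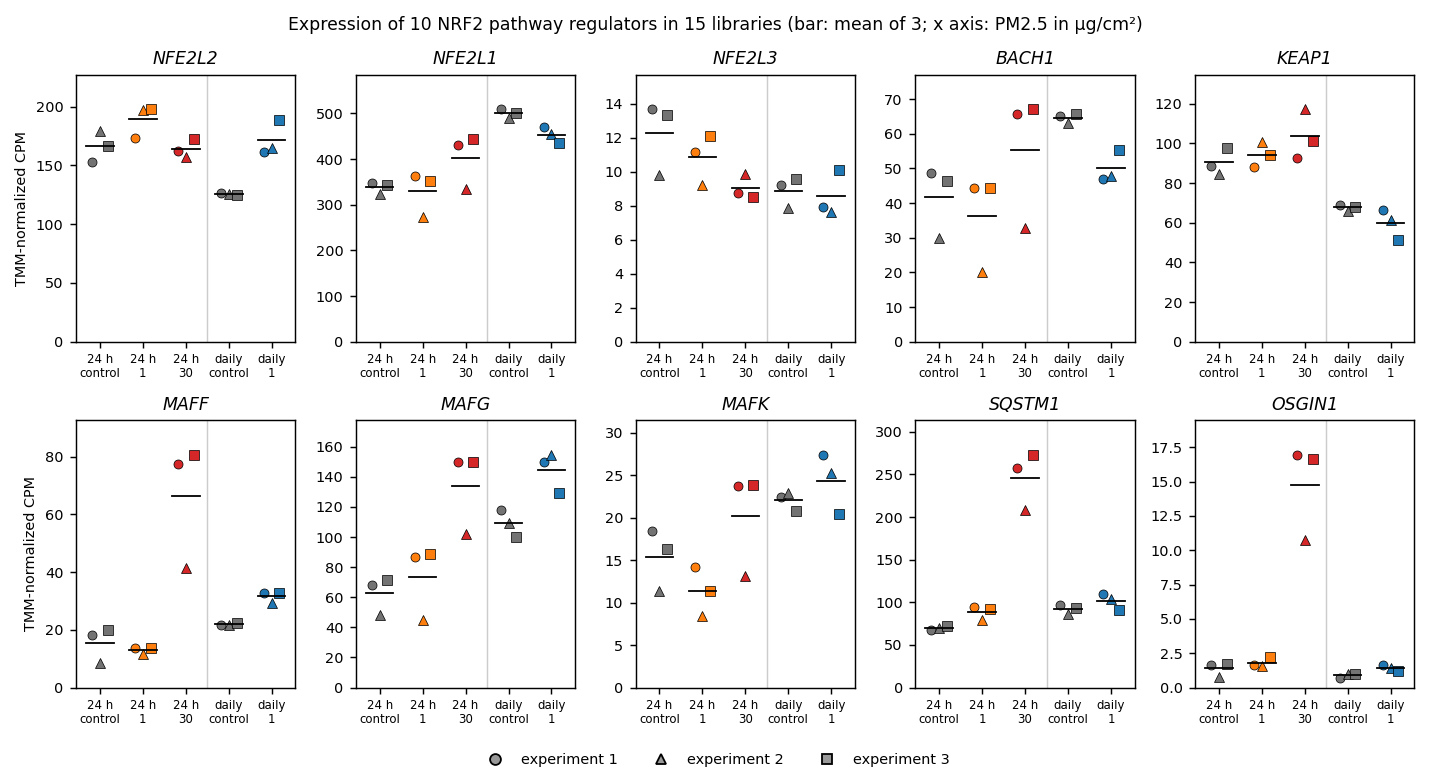
Expression of each regulator in all 15 libraries, as TMM-normalized CPM on linear axes from 0, with one panel per gene, conditions along the x axis and symbols for the 3 experiments. Bars are means of 3. SQSTM1, OSGIN1, MAFF and MAFG at 30 µg/cm2 lie above every 24-h control, and in the panels of BACH1, MAFF, MAFG and MAFK the triangles of experiment 2 sit below the other 24-h libraries of the same condition.

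The comparison of 30 µg/cm2 of PM2.5 with vehicle control at 24 h asks which of these genes respond to a single high concentration. OSGIN1, MAFF, SQSTM1 and MAFG rose, by 10.4-fold, 4.26-fold, 3.52-fold and 2.14-fold, and no regulator was called lower. The other 6, among them NFE2L2 and KEAP1, did not pass the test. Without the 24-h libraries of experiment 2 the log2 fold-changes of OSGIN1, MAFF, SQSTM1 and MAFG were 3.29, 2.04, 1.92 and 1.09, and all 4 were called. A call needed an adjusted p (Benjamini-Hochberg, quasi-likelihood test of edgeR) below 0.05 together with a log2 fold-change of 0.6 or more in either direction. These calls were 4 of 10, against 8.07% of all genes tested, 3.82% called higher and 4.24% called lower. The median log2 fold-change of the 10 was 0.40 and that of all genes tested was 0.03.

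Of the activators, NFE2L2 had 153, 179 and 167 CPM in the controls of experiments 1 to 3 and 163, 157 and 173 CPM after 30 µg/cm2. The exposed libraries lay within the range of the controls. Its log2 fold-change was -0.02, with a 95% interval from -0.24 to 0.21 and an adjusted p of 0.945 by edgeR. NFE2L1, a related factor that is processed from the endoplasmic reticulum and controls proteasome genes, had 348, 324 and 343 CPM in the controls and 431, 334 and 443 CPM after exposure. Experiment 2 after exposure lay within the controls, and the other exposed libraries lay above them. The log2 fold-change of NFE2L1 was 0.25, with an interval from -0.03 to 0.54. NFE2L3 had 13.7, 9.79 and 13.4 CPM and then 8.78, 9.85 and 8.52 CPM. It was lower in experiments 1 and 3 and level in experiment 2. The log2 fold-change of NFE2L3 was -0.44, with an interval from -0.81 to -0.07 and an adjusted p of 0.135 by edgeR. With the experiment as a replicate block it was -0.42 with an adjusted p of 0.0393, below the fold that a call needed. Without the 24-h libraries of experiment 2, NFE2L3 was called lower at -0.66 with an adjusted p of 0.00207.

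BACH1, the repressor, had 48.8, 29.9 and 46.2 CPM in the controls and 65.6, 32.9 and 67.0 CPM after 30 µg/cm2. The exposed library was the higher in each of the 3 experiments, and both libraries of experiment 2 were low. The groups overlapped because the exposed library of experiment 2 lay below the controls of experiments 1 and 3. The log2 fold-change of BACH1 was 0.41, with an interval from -0.24 to 1.05 and an adjusted p of 0.461. With the experiment as a replicate block it was 0.37 and the adjusted p by edgeR was 0.0147, below the fold that a call needed. Without the 24-h libraries of experiment 2 BACH1 was at 0.47 with an adjusted p of 4.45e-04, likewise below that fold. KEAP1 had 88.9, 84.8 and 98.0 CPM and then 92.8, 117 and 101 CPM, with a log2 fold-change of 0.20 and an interval from -0.07 to 0.46. Its groups overlapped, and the library of experiment 2 was the highest after exposure.

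The small MAF genes did not change by the same amount. MAFF had 18.3, 8.57 and 19.8 CPM in the controls and 77.6, 41.3 and 80.5 CPM after 30 µg/cm2. Every exposed library lay above every control, and the library of experiment 2 was the lowest of its group on both sides. MAFF differed by a log2 fold-change of 2.09 ± 0.282 (SE), with an adjusted p of 0.000378 by edgeR. MAFG had 68.5, 48.5 and 71.3 CPM and then 150, 102 and 150 CPM. These groups did not overlap either, and within the 3 experiments the log2 ratios of MAFG were 1.13, 1.08 and 1.08. Its log2 fold-change was 1.10 ± 0.238 (SE), with an adjusted p of 0.00969 by edgeR. In a fit of the 2 compared groups alone the adjusted p of MAFG was 0.0554, so that the call was lost. MAFK had 18.5, 11.4 and 16.3 CPM in the controls and 23.7, 13.2 and 23.8 CPM after exposure. Its groups overlapped, and its log2 fold-change was 0.39 (interval -0.13 to 0.92). Within the 3 experiments the log2 ratios of MAFK were 0.36, 0.22 and 0.55. With the replicate block it was at 0.38 with an adjusted p of 0.0178 by edgeR, below the fold that a call needed. A gene on the opposite strand, TMEM184A, shares 18.2% of the exon bases of MAFK and was called lower at -0.62, and the strand used in counting is not given in the sources used here.

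SQSTM1, which links ubiquitinated cargo to the autophagosome and can sequester KEAP1, had 67.5, 70.4 and 71.8 CPM in the controls and 258, 208 and 273 CPM after 30 µg/cm2. The controls were close to each other and far below every exposed library. SQSTM1 changed by 1.82 ± 0.126 (SE) on the log2 scale, with an adjusted p of 5.62e-06 by edgeR. MRNIP, on the opposite strand, shares 20.7% of the exon bases of SQSTM1 and was at 8.18 and 7.24 CPM on average in these groups, with a log2 fold-change of -0.18. OSGIN1 was the least abundant and changed most. It was counted 55, 17 and 49 times in the controls and 515, 311 and 347 times after exposure. These counts corresponded to 1.66, 0.801 and 1.74 CPM and to 16.9, 10.8 and 16.6 CPM, so that the groups lay far apart. OSGIN1 thus had a log2 fold-change of 3.38 ± 0.298 (SE), with an adjusted p of 2.08e-05 by edgeR. Of the 10 regulators, 4 had all 3 exposed libraries above all 3 controls, and 11.7% of all genes tested did.

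**Figure D2:**
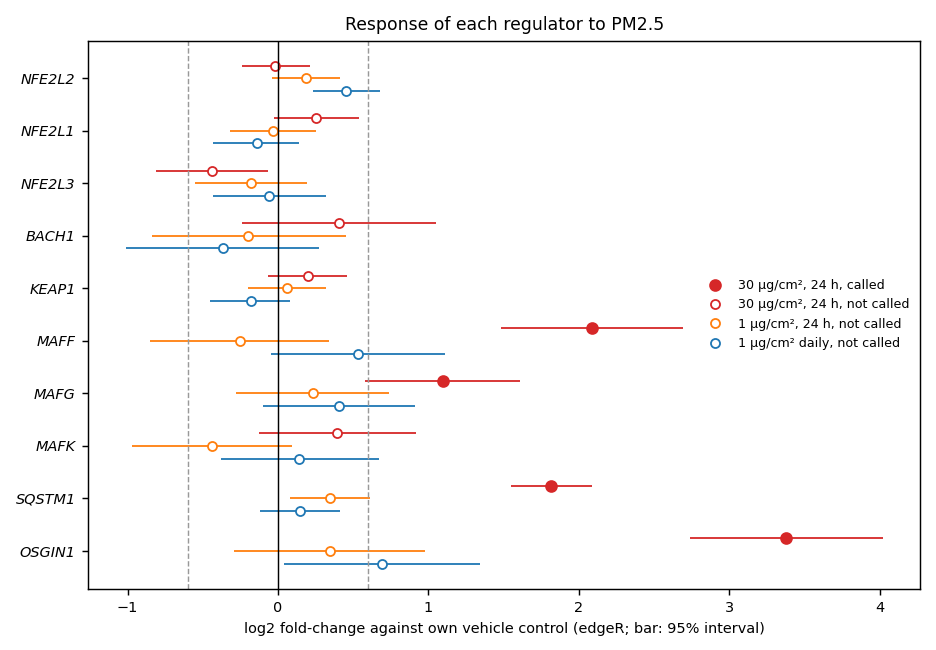
Log2 fold-change of each regulator against its own vehicle control (x axis) for 30 µg/cm2 and 1 µg/cm2 at 24 h and for 1 µg/cm2 daily, with 95% intervals from edgeR. Filled points were called and dashed lines mark a log2 fold-change of 0.6 in either direction. The 4 filled points are MAFF at 2.09, MAFG at 1.10, SQSTM1 at 1.82 and OSGIN1 at 3.38, all at 30 µg/cm2.

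The comparison of 1 µg/cm2 of PM2.5 with vehicle control at 24 h asks whether a low concentration moves the same genes. None of the 10 regulators was called by edgeR, against 0.0625% of all genes tested, and DESeq2 also called 0. At an unadjusted p under 0.05 there was 1, SQSTM1. This comparison and the one at 30 µg/cm2 share their control libraries. SQSTM1 had 94.4, 79.8 and 91.9 CPM after 1 µg/cm2, and the lowest of these lay above the highest control, as it did for 2.31% of all genes tested. For SQSTM1 the log2 fold-change was 0.34 ± 0.122 (SE), with an interval from 0.08 to 0.61 and an adjusted p of 1 by edgeR. OSGIN1 had 1.63, 1.54 and 2.21 CPM, which overlapped the controls, and a log2 fold-change of 0.35 (interval -0.29 to 0.98). Without the 24-h libraries of experiment 2, SQSTM1 was at 0.43 with an adjusted p of 0.0115 and MAFF at -0.46 with an adjusted p of 0.00866 by edgeR, both below the fold that a call needed.

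NFE2L2 had 174, 198 and 198 CPM after 1 µg/cm2, a log2 fold-change of 0.19 (interval -0.04 to 0.41). It was higher than the control in each of the 3 experiments, but the lowest exposed library lay below the highest control. MAFF had 13.7, 11.7 and 13.8 CPM. It was below its control in experiments 1 and 3 and above it in experiment 2, with a log2 fold-change of -0.25 (interval -0.85 to 0.34). MAFK was lower in all 3 experiments, with log2 ratios of -0.38, -0.43 and -0.51, and its log2 fold-change of -0.44 had an interval from -0.97 to 0.09. The remaining 5, MAFG, BACH1, NFE2L1, NFE2L3 and KEAP1, had log2 fold-changes between -0.20 and 0.23, and all 5 intervals included 0.

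Compared directly with 1 µg/cm2, 30 µg/cm2 raised 5 regulators, of which 4 were those called against the control. The calls were 5 of 10, against 7.84% of all genes tested and 3.62% called higher. The log2 fold-changes were 3.03 for OSGIN1, 2.34 for MAFF, 1.47 for SQSTM1, 0.86 for MAFG and 0.83 for MAFK. The calls of MAFG (adjusted p = 0.0337 by edgeR) and MAFK (adjusted p = 0.0488) were lost when experiment 2 at 1 µg/cm2, experiment 1 at 30 µg/cm2 or experiment 3 at 30 µg/cm2 was left out, and the call of MAFK also without experiment 3 at 1 µg/cm2. The adjusted p-values were then 0.059 to 0.137 for MAFG and 0.111 to 0.201 for MAFK. In a fit of those conditions alone they were 0.251 and 0.267, and that of MAFK was 0.0525 with RLE normalization and 0.0503 with a filter at 1 CPM. BACH1 stood at 0.60 with an adjusted p of 0.236. With the replicate block BACH1 was called as well, at 0.61 with an adjusted p of 6.16e-04 by edgeR, which made 6 of 10 against 6.97% of all genes called higher in that fit. NFE2L2 was below its value at 1 µg/cm2 in all 3 experiments, with a log2 fold-change of -0.21 and an interval from -0.43 to 0.02.

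Daily exposure to 1 µg/cm2 of PM2.5 was compared with the controls of the same protocol to ask whether repeated low exposure acts on these genes. No regulator was called by edgeR, against 0.227% of all genes tested, DESeq2 called 0, and 2 had an unadjusted p under 0.05. Those were NFE2L2 and OSGIN1. The controls of this protocol lay close together, and 4 regulators, NFE2L2, MAFF, MAFG and OSGIN1, were above all controls in every exposed library, with NFE2L1 and BACH1 below all controls. Among all genes tested 21.3% were above and 21.6% below in the same way. The spread behind the adjusted p-values here was shared with the 24-h libraries, among which those of experiment 2 stood apart.

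NFE2L2 had 127, 126 and 125 CPM in the daily controls and 162, 165 and 189 CPM after daily exposure. The controls differed by little, and all exposed libraries were higher. The log2 fold-change of NFE2L2 was 0.45 ± 0.105 (SE), a 1.37-fold difference, with an adjusted p of 0.102 by edgeR. With the replicate block NFE2L2 had the same size, 0.45, and an adjusted p of 0.0082, below the fold that a call needed. BACH1 had 65.0, 63.1 and 65.8 CPM in the controls and 47.0, 48.0 and 55.2 CPM after exposure, a log2 fold-change of -0.37 with an adjusted p of 0.675, and of 0.0296 with the block. Its groups did not overlap.

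MAFF had 21.7, 21.6 and 22.5 CPM and then 32.9, 29.3 and 32.8 CPM, and its log2 fold-change was 0.53 (adjusted p = 0.472 by edgeR, and 0.031 with the block). MAFG had 118, 110 and 99.8 CPM and then 150, 154 and 130 CPM, with 0.41 on the log2 scale (adjusted p = 0.537 by edgeR, and 0.020 with the block). Both genes were higher in each of the 3 experiments. In the fit with the block 12.2% of all genes had an adjusted p under 0.05 for this comparison. OSGIN1 had 0.684, 0.964 and 1.00 CPM in the controls and 1.65, 1.44 and 1.22 CPM after daily exposure, from 18 to 51 counts per library, and a log2 fold-change of 0.69 (interval 0.04 to 1.34). It did not pass with the block either (adjusted p = 0.0759 by edgeR).

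SQSTM1 had 97.1, 85.7 and 93.1 CPM in the daily controls and 109, 104 and 91.6 CPM after exposure, and these overlapped. The log2 fold-change of SQSTM1 was 0.14, with an interval from -0.12 to 0.41. KEAP1 was at 67.8 ± 1.56 and 59.7 ± 7.75 CPM, with a log2 fold-change of -0.18 (interval -0.45 to 0.08). NFE2L1 was below its controls in every exposed library, at 454 ± 18.1 against 500.4 ± 9.21 CPM, with -0.14 on the log2 scale (interval -0.43 to 0.14). NFE2L3 and MAFK had log2 fold-changes of -0.06 and 0.14, both with overlapping groups.

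**Figure D3:**
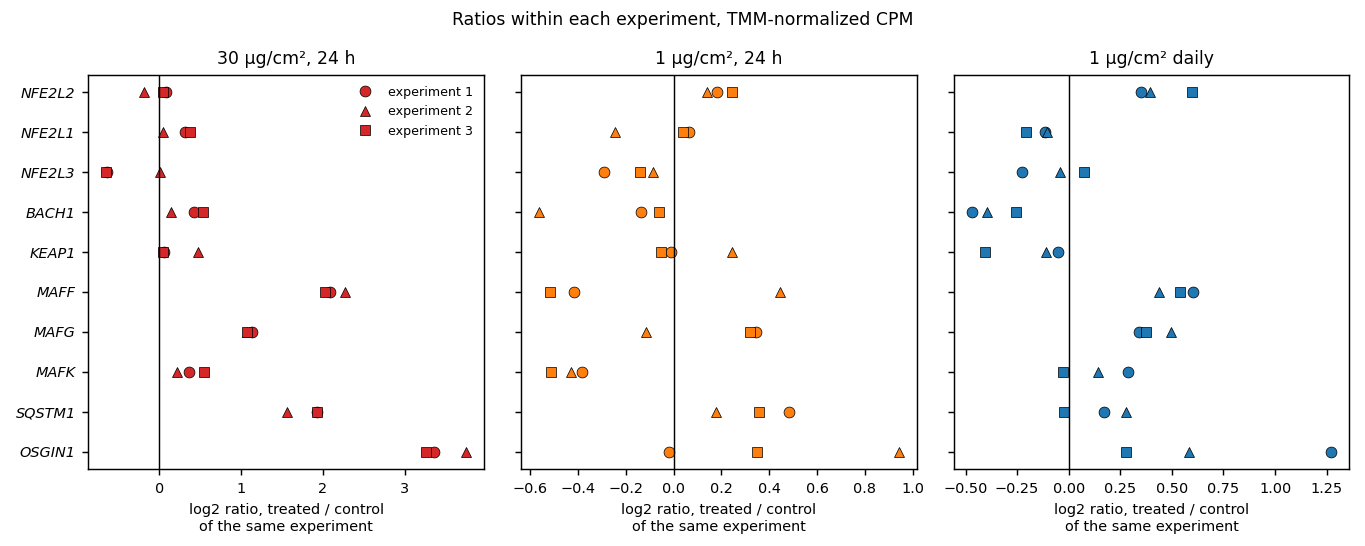
Log2 ratio of treated to control CPM within each of the 3 experiments (x axis, with its own scale in each panel) for every regulator, in panels for 30 µg/cm2 and 1 µg/cm2 at 24 h and 1 µg/cm2 daily. At 30 µg/cm2 the 3 ratios of MAFG lie between 1.08 and 1.13, and after daily exposure those of NFE2L2 lie between 0.35 and 0.60.

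The responses themselves were then compared between protocols. Against the response at 1 µg/cm2 for 24 h, the response to daily exposure was called different for none of the 10 regulators by edgeR. DESeq2 called 0, there were 0 at an unadjusted p under 0.05, and 0% of all genes were called. That share depended on the libraries used. Without the 24-h libraries of experiment 2, 1766 genes were called, and with a single library left out 0 to 63. The differences ran from -0.24 for KEAP1 to 0.78 for MAFF on the log2 scale, the latter with an interval that included 0. Against the response at 30 µg/cm2, the daily response of SQSTM1 was lower by 1.67 and that of OSGIN1 lower by 2.69 on the log2 scale, with adjusted p-values of 8.73e-04 and 0.00587 by edgeR. These were 2 of 10, against 0.977% of all genes called lower. With the replicate block 5 of 10 were called lower, against 7.82%, the others being MAFF at -1.58, MAFG at -0.69 and BACH1 at -0.74. Concentration, number of exposures, plating density, daily washing and time in culture all differ in this comparison and cannot be told apart.

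The vehicle controls of the repeated protocol differed from those of 24 h in plating density, days in culture and daily changes of medium with washing, and were other experiments. MAFG was higher by 0.80 on the log2 scale in the daily controls (adjusted p = 0.0218 by edgeR), and was the 1 call among the 10, against 11.1% of all genes called higher and 10.8% called lower. This call was lost without experiment 2 of the 24-h controls or without experiment 1 or 2 of the daily controls. With the adjusted p alone 5 of 10 passed, against 28.9% of all genes. These were MAFG, NFE2L1 at 0.57, SQSTM1 at 0.40, NFE2L2 at -0.40 and KEAP1 at -0.42. The groups did not overlap for 6 regulators that were higher and 3 that were lower, against 27.6% and 24.7% of all genes.

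The other genes of the pathway were taken from lists that group them by role. Among 25 genes of NRF2 turnover, which hold the CUL3 ligase and the proteins that modify or bind KEAP1 and NRF2, 1 was called higher at 30 µg/cm2 and none lower, a share close to the 3.82% of all genes called higher. It was TRIM16, an E3 ligase reported to act with p62 and NRF2, with 9.80 ± 1.13 CPM in the controls and 24.4 ± 5.65 CPM after exposure, a log2 fold-change of 1.32. The median of this list was 0.19. SESN2, a sestrin, was at 1.12 with an adjusted p of 0.0792 by edgeR, and was called higher with the replicate block at 1.34 (adjusted p = 0.00414). Of the 7 tested genes that process NRF1 none was called by edgeR. OGT, which attaches N-acetylglucosamine to proteins, had a log2 fold-change of 0.70 and was called with the replicate block only. NGLY1, at 0.37, had an adjusted p of 0.0334 by edgeR but a fold below the threshold. SEL1L, DDI2, VCP and RAD23B were at 0.38, 0.21, -0.18 and -0.30.

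Of the 6 other factors of the CNC, BACH and MAF families, MAF was called lower, at -2.19. Its level was 0.652 ± 0.536 CPM in the controls and 0.127 ± 0.0933 CPM after 30 µg/cm2, where the lowest library lay under the level of 3 counts. NFE2 was at -1.94 with an adjusted p of 0.248 by edgeR, and was called lower with the replicate block at -1.93 (adjusted p = 0.00443). BACH2, MAFA and NRL had log2 fold-changes of 0.26, 0.93 and 0.57, none of which passed. The average level of each of these 6 in the controls was at most 1.71 CPM.

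Among 20 genes of selective autophagy around p62, MAP1LC3B and MAP1LC3B2 were called higher at 30 µg/cm2, with log2 fold-changes of 1.41 and 1.89, and none was called lower, against 3.82% and 4.24% of all genes. With the replicate block GABARAP, a relative of LC3B, was called lower at -1.02 (adjusted p = 0.0405 by edgeR), and without it GABARAP was at -0.94 with an adjusted p of 0.151. MAP1LC3B encodes LC3B, which p62 binds on the autophagosome. It had 37.7 ± 3.52 CPM in the controls, 36.6 ± 5.13 CPM after 1 µg/cm2 and 100.2 ± 29.9 CPM after 30 µg/cm2. MAP1LC3B2 is a near-identical copy at 1.97 CPM or less on average, and reads of either gene may have been counted on the other. The median of the list was -0.01. After daily exposure MAP1LC3B had 78.8 ± 5.57 against 45.6 ± 1.48 CPM, a log2 fold-change of 0.79 with an adjusted p of 0.105 by edgeR, and was called with the replicate block (adjusted p = 0.0174).

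Of 30 NRF2 target genes, 15 were called higher at 30 µg/cm2 (17 with the replicate block) and none lower, against the 3.82% and 4.24% of all genes, with a median log2 fold-change of 0.75. The pseudogene NMRAL2P rose by 5.22 on the log2 scale from 0.473 ± 0.0723 to 17.8 ± 5.68 CPM. HMOX1, which breaks down haem, was at 3.25. SLC7A11, which imports cystine, was at 2.93, and FTL, the ferritin light chain, was at 2.78. NQO1, a quinone reductase, was at 1.95. At 1 µg/cm2 none of the 30 was called by edgeR, and with the replicate block NMRAL2P at 1.62, NQO1 at 0.92 and FTL at 1.00 were. The study used a less stringent likelihood ratio test for that concentration, and lists NMRAL2P and NQO1 as higher. After daily exposure none was called, and with the block NMRAL2P was higher at 1.12 and TKT and ABCC1 lower at -0.77 and -0.69. In the daily controls against the 24-h controls, 10 of the 30 were called lower and 1 higher, against 10.8% and 11.1% of all genes. NQO1 and HMOX1 were among the lower, at -1.68 and -1.58. The study names HMOX1, NQO1, GCLM and FTL of this list, and SQSTM1 of the 10 regulators, in its account of oxidative stress in these samples, so the direction of either group is not independent evidence.

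**Figure D4:**
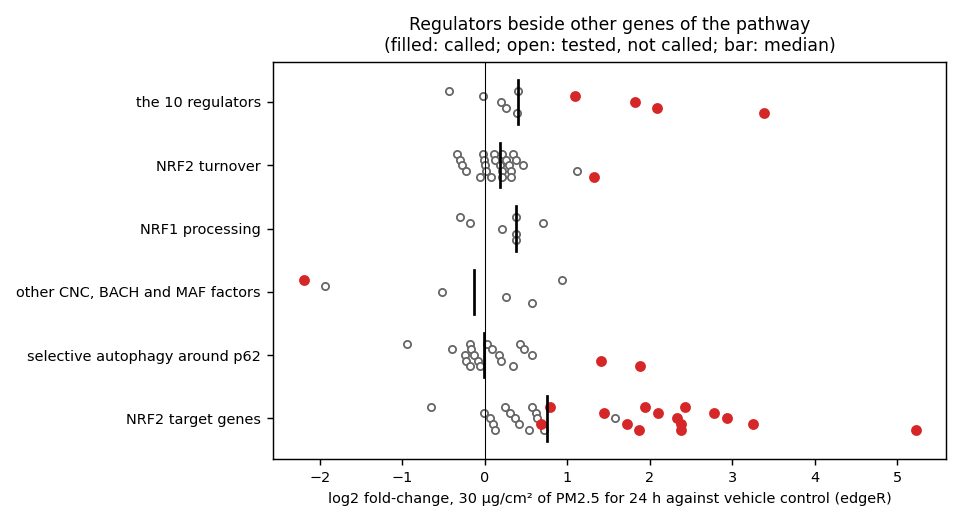
Log2 fold-change at 30 µg/cm2 of PM2.5 against vehicle control at 24 h (x axis) for every tested gene of each list, with called genes filled and the median of each list as a bar. The medians are 0.40 for the 10 regulators and 0.75 for the NRF2 target genes, and they lie between -0.13 and 0.37 for the other lists.

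The genes most like the 4 called regulators over the 15 libraries were found by Pearson correlation of log2 CPM. For OSGIN1 they were LIF, ZPR1 and SPOCD1 (r = 0.97, 0.97 and 0.97), and for SQSTM1 SEL1L3, UPP1 and EGR1 (r = 0.97, 0.96 and 0.96). For MAFF they were SLC16A6, FBXO22 and AEN, each at 0.98, and for MAFG TRIM36, RPS4XP16 and HLCS at 0.96. These libraries share experiments and treatments, and the correlations describe them only.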

How the data were processed

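The authors deposited counts of reads per gene for 15 libraries, without normalization, from single-end reads of 50 bases of polyadenylated RNA aligned with STAR and counted with featureCounts. The file header gives gene coordinates and an exon length for each gene, which was used for RPKM. Of 57392 genes with a symbol, 57370 overlapped the GRCh38 position of that gene, although the submitters' notes name hg19, and GRCh38 was therefore used. Strand and multi-mapping options of the counting are not given in the sources used here. The members and lists were chosen with earlier results of these data known.

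Counts were filtered by condition with filterByExpr, scaled by TMM and fitted in R 4.3.3 with edgeR 4.0.16 (quasi-likelihood, one mean per condition, all 15 libraries), with p-values adjusted over 17599 genes. Each SE was obtained from the fold-change and its F statistic, and 95% intervals from the SE and the t quantile of the fit. Fits were tested on simulated data. Named genes are the 10 regulators, from each pathway list the 4 with the largest called change at 30 µg/cm2 plus NQO1 and HMOX1, every tested gene of lists of up to 8, overlapping genes and the 3 most correlated genes. TKT, ABCC1, SESN2, GABARAP, GCLM and, after daily exposure, MAP1LC3B were named after their values were seen. A few genes that this rule covers are not reported here. Replicate numbers mark an experimental batch per the series record. Deviations from group means correlated by 0.201 to 0.721 between same-numbered libraries at 24 h and by 0.121 to 0.181 in the repeated protocol, so the numbers were used as a block in an alternative fit. Other alternatives were RLE, other filters, other libraries in the fit, edgeR's current mode and likelihood ratio test, DESeq2 1.42.0 and leaving out libraries. The level of 3 counts covers counting error only. The p-values of the main fit rest on a spread per gene that all 15 libraries of this line share, without pairing by experiment. Those for daily exposure thus include the spread of the 24-h libraries.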

Additional observations from a re-analysis of the deposited data

Results flagged for a closer look

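The response of SQSTM1 to daily exposure to 1 µg/cm2 of PM2.5 was lower than its response to 30 µg/cm2 for 24 h, with a difference of -1.67 on the log2 scale in edgeR's interaction test across 17599 genes. That of OSGIN1 differed by -2.69 in the same test. The concentrations, numbers of exposures, times and handling of the cells differ between the 2 protocols, and their parts in these differences cannot be told apart.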

How the results depend on the processing

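For single regulators, 340 of 350 values under alternatives of normalization, filter, model, test or the set of conditions or experiments in the fit, and 227 of 240 with a single library left out, had the direction and the side of the threshold reported. Without the 24-h libraries of experiment 2, NFE2L2 at 30 µg/cm2 was at 0.053, and at 1 µg/cm2 NFE2L1 was at 0.061 and KEAP1 at -0.024, each with its sign turned and not called. With single libraries left out the sign also turned in ranges from -0.093 to 0.035 for NFE2L2 at 30 µg/cm2, -0.095 to 0.084 for NFE2L1 and -0.373 to 0.093 for BACH1 at 1 µg/cm2, and -0.197 to 0.018 for NFE2L3 after daily exposure, none of them called. Of the regulators, the number called between the controls was 1 and became 5 with the adjusted p alone, 2 without a filter, 2 in a fit of those groups alone, 3 without experiment 2 at 24 h and 0 to 2 without a single library. Between 30 and 1 µg/cm2 it was 3 in a fit of those groups alone and 3 to 6 without a single library. For the daily response against that at 30 µg/cm2 it was 5 with the replicate block and 6 without experiment 2, and against that at 1 µg/cm2 it was 1 without experiment 2. The cause was not tested. Among all genes, 3860 of 17599 were called between the controls, 5564 without experiment 2 and 2832 to 4071 without a single library. Between 30 and 1 µg/cm2 these numbers were 1379, 149 in a fit of those groups alone and 711 to 2715 without a single library. For the daily response against that at 30 µg/cm2 they were 320 and, without experiment 2, 3884. Against that at 1 µg/cm2 they were 0 and 1766. The block is a paired fit within each protocol, and apart from BACH1, MAFF and MAFG as reported it changed no call of a regulator. Over all genes, the number called at 30 µg/cm2 was 1420 and ran from 360 in a fit of those groups alone to 3430 without experiment 2, at 1 µg/cm2 it was 11 and ran from 2 to 378, and after daily exposure it was 40 and ran from 42 to 1029, or 0 to 11 without a single library. Depth limits OSGIN1 most, with 17 counts in its lowest library.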

Other observations

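For the regulators that were not called, the genes with the most similar pattern over the 15 libraries were TXNIP, PNMA1 and DRAM1 for NFE2L2 (Pearson r of 0.91, 0.91 and 0.90 across libraries that share experiments and treatments), ZMAT3, SLC22A15 and UVRAG for NFE2L1 (0.99, 0.98 and 0.98), PLS3, LPAR1 and GNAI3 for NFE2L3 (0.92 each), ACAP2, ZBTB11 and FNDC3A for BACH1 (0.99, 0.98 and 0.98), CRAMP1, TENT4A and TBC1D30 for MAFK (0.98, 0.97 and 0.96) and CLPTM1, TRPC4AP and SYMPK for KEAP1 (0.98, 0.97 and 0.97). An unnamed gene on the strand of NFE2L2 shares 17.6% of the exon bases of NFE2L2 and had 2.85 CPM in the 24-h controls and 5.25 CPM after 30 µg/cm2, a called log2 fold-change of 0.88, while NFE2L2 itself was at -0.02.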
